A study of Mus musculus with 8 samples.

Results

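The constitutive 26S proteasome was described through the transcripts of 31 of its subunits in the gastrocnemius, a muscle of the calf. The members were taken by gene symbol from a table of 35949 gene rows, and all 31 had a row and passed the filter on low counts. They comprise 14 genes of the 20S core particle (Psma and Psmb) and 17 genes of the 19S cap (Psmc and Psmd). Libraries labelled T3TG (n = 4) are muscle from aged mice transplanted with blood-forming stem cells that overexpress SIRT3, a mitochondrial deacetylase, and those labelled WT (n = 4) are muscle from aged mice that received control stem cells. The reading of T3TG as the SIRT3 arm rests on the series' design text, since the labels name only the 2 genotypes. The titles of the T3TG libraries begin with T3 and those of the WT libraries with Mx1. What these stand for, the promoter of the transgene, the exact age, sex and conditioning of the recipients, and how many mice a library holds are not given. The genotype is that of the transplanted cells, so the muscle fibers in both groups belong to the recipients.

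The proteasome degrades proteins tagged with ubiquitin. Its core is a barrel of stacked alpha and beta rings whose proteolytic sites, on the beta subunits Psmb5, Psmb6 and Psmb7, face inward. The cap binds ubiquitinated substrates, removes the ubiquitin, and feeds the unfolded chain into the core through a ring of ATPases. In skeletal muscle this machinery degrades myofibrillar proteins and is known for its part in muscle wasting.

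Library totals lay between 16.8 and 28.1 M counts in T3TG and between 16.2 and 21.5 M counts in WT. The lowest count of any member in any library was 647 and the highest 6242. In T3TG replicates 2 and 3 nearly all low counts are even numbers (97.5% and 98.0% of values from 10 to 99, against 50.5% to 52.5% in the other 6 libraries), so results are also given without them. Among the members, 23 and 28 of 31 had an even count in these libraries and 14 to 20 in the others. The tissue label matched the data, with 6 muscle fiber markers summing to between 100305 and 130937 CPM (counts scaled to a common library size with TMM factors) in T3TG and between 116135 and 128254 CPM in WT.

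The subunits differed in their transcript level, within the core as well as within the cap. Per kilobase of coding sequence, the mean level over the 8 libraries ran from 55.7 CPM for Psmd14, the deubiquitinase of the lid, to 235 CPM for Psmb7, the beta subunit with trypsin-like activity. Psmd8, a lid subunit needed, in yeast, for assembly of the cap, was next below Psmb7 with 192 CPM per kilobase, and Psmb4, a beta subunit without a catalytic site, followed with 185 CPM per kilobase. Psmb5, which carries the chymotrypsin-like site, stood at 89.9 CPM per kilobase and Psmb6, which carries the caspase-like site, at 180 CPM per kilobase. On this scale Psma3 was the highest alpha subunit (159 CPM per kilobase) and Psmc3 the highest ATPase (143). Psmd4, a ubiquitin receptor, was the highest of the other base subunits (124). Counts per gene can also hold reads from untranslated parts, which the coding length leaves out, so the order of the subunits is uncertain. Psma3 has 765 coding bases in a transcript of 2846 bases, and Psma7 has 744 in one of 914. The spread of a member over the 8 libraries was small, with a coefficient of variation between 2.71% for Psmd3, a lid subunit, and 13.8% for Psmd8.

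**Figure D1:**
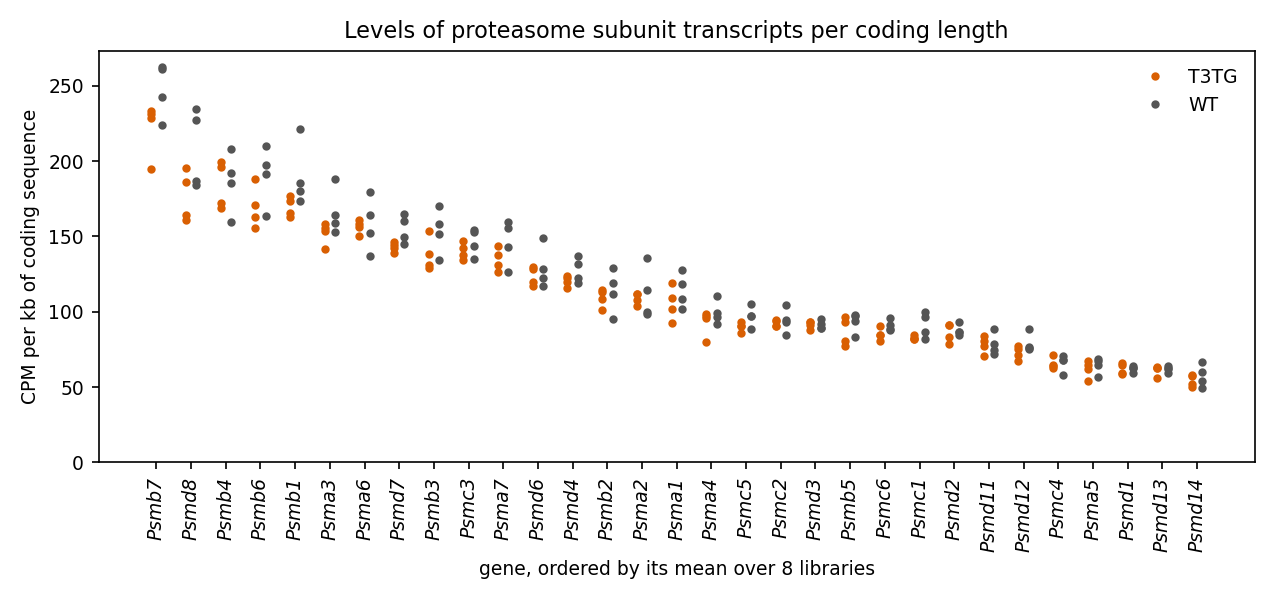
Level of each subunit transcript in CPM per kilobase of coding sequence (vertical axis), 1 point per library, T3TG left and WT right of each gene's tick, genes in order of their mean over the 8 libraries. The order runs from Psmb7 at 235 to Psmd14 at 55.7 CPM per kilobase, and the points of T3TG and WT overlap in every gene.

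Altogether 8 members share exon bases with another annotated gene. Psmd13, a lid subunit, neighbors the mouse gene of the overexpressed protein. It starts on the plus strand of chromosome 7, 84 bases from the RefSeq start of Sirt3, which is transcribed the other way, and in GENCODE their exons share 342 bases, 10.1% of the Psmd13 exon bases. Since the strand setting of the counting is not given, reads in that stretch cannot be told apart. Psmd13 had 70.9, 62.9, 71.4 and 70.5 CPM in T3TG replicates 1 to 4, against 70.4, 71.8, 70.2 and 66.8 CPM in WT replicates 1 to 4. The level of Sirt3 was 19.1, 20.5, 15.8 and 15.4 CPM in T3TG and 17.3, 16.5, 19.7 and 22.0 CPM in WT. The groups overlapped in both genes, with log2 fold changes of -0.02 (SE 0.08) for Psmd13 and -0.09 (SE 0.13) for Sirt3. Psmb7 shares 11.8% of its exon bases with Nek6 on the opposite strand and Psmb5 12.1% with the microRNA gene Mir686. In the other 5 members the shared part of exon bases lay between 0.342% and 8.25% per partner gene. Altogether 13 pseudogene copies with at least 95% identity over at least 150 bases were found for Psma3, Psma4, Psma5, Psmb3, Psmb5, Psmc1, Psmd2 and Psmd11. None of these copies has a row under its symbol, and how reads matching several places were counted is not given, so the levels of these 8 members are uncertain.

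Promoter windows, 250 bases before to 50 after the RefSeq start, were at hand for 25 of the 31 members (11 core, 14 cap) and were searched for 14 letter patterns on both strands. The factor Nfe2l1 drives proteasome genes when proteasome activity falls and binds antioxidant response elements, whose letters include TGACNNNGC. That pattern was present in 4 of 25 members (16%), against 13.99% of 27025 genes with a promoter window. The matches are shown because they include both catalytic beta subunits with a window, Psmb5 and Psmb6. The stretches below read 5′ to 3′ along the strand that carries the match, in GRCm38.p6 (mm10) coordinates, with the match in capitals.
Psmb5 (chr14:54618024-54618052, minus strand): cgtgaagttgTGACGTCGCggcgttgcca
Psmb6 (chr11:70525338-70525366, plus strand): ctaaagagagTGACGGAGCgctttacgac
Psmc6 (chr14:45329587-45329615, minus strand): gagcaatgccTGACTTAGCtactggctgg
Psmd12 (chr11:107479278-107479299, minus strand): ggggcaaatgTGACACAGCaga

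In Psmb5 and Psmb6 the match began 47 and 9 bases before the start, and in Psmc6 and Psmd12 it began 227 and 247 bases before it. The letters CCGGAAG, the core of sites for ETS family factors, were present in 9 of 14 cap members and in 1 of 11 core members with a window, against 9.93% of all genes. This pattern was picked out after all 14 had been counted. Psma6 and Psmc2 each have a pair of windows. Psmc2 holds the pattern once in each. Psma6 holds it 3 times, all in the window at chr12:55398575-55398874. Its other window, chr12:55383972-55384271, covers its GENCODE start (55384222) and has no match. The pattern CCGGAAG overlaps the shorter pattern GGAAG, which is in 73.9% of all genes. For each gene the match nearest to a RefSeq start is shown, because 9 of the 10 genes that hold the pattern are cap genes.
Psma6 (chr12:55398813-55398839, plus strand): cgccggtgctCCGGAAGcagtagccat
Psmc1 (chr12:100110164-100110190, minus strand): atcgccaccgCCGGAAGtgcatccacc
Psmc2 (chr5:21786713-21786739, minus strand): ctcttccccaCCGGAAGtagctccgcg
Psmc6 (chr14:45329714-45329740, plus strand): ggcgggccagCCGGAAGgggcggagcc
Psmd2 (chr16:20651616-20651642, minus strand): gtcctccagaCCGGAAGcgccctgcgg
Psmd4 (chr3:95042723-95042749, minus strand): tacagctgttCCGGAAGctgctgcgaa
Psmd6 (chr14:14120974-14121000, minus strand): agagacgcgaCCGGAAGtcagactggc
Psmd11 (chr11:80428594-80428620, minus strand): aaacacacacCCGGAAGacccgccctc
Psmd12 (chr11:107479501-107479527, minus strand): gtcactcgcaCCGGAAGtcgcccgctc
Psmd13 (chr7:140882378-140882404, plus strand): gcccgcggtgCCGGAAGtgagcgagca

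A match is a description of these windows and not a site of binding. In Psmd13 the match lies between the starts of Psmd13 and Sirt3 and reaches the first base of Psmd13. The letters CCAAT were in 10 of 25 members (40.0%) and in 41.1% of all genes.

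Proteasome transcripts were then compared between recipients of SIRT3-overexpressing and of control stem cells. All 31 members had a lower fitted level in T3TG than in WT, but the differences were small and none passed the test across all genes. Log2 fold changes ran from -0.24 for Psmd8 to -0.00181 for Psmd3, with a median of -0.08, a difference of -5.50%. The median over all 14064 genes tested was -0.00427, and 50.9% of them had a log2 fold change below 0. By edgeR's quasi-likelihood test 0 of 31 members had an adjusted p under 0.05, against 0.0711% of all genes, and the lowest adjusted p of a member was 0.554. Psmd8 alone had an unadjusted p under 0.05, 1 of 31 members, against 2.45% of all genes lower at that p. At that p 0 of 31 members were higher, against 5.88% of all genes. In 0 of 31 members was every T3TG library below every WT library, which was so for 1.66% of all genes. The DESeq2 Wald test also called 0 of 31, with Psmd8 alone under an unadjusted 0.05.

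Over the members, the 95% intervals of the log2 fold change reached no lower than -0.45 (Psmd8) and no higher than 0.18 (Psmb4). Relative to the median of all genes, 29 of 31 members were lower, and the core and cap medians lay at -0.10 and -0.060 on the log2 scale. Leaving out the scaling factors moved all genes upward, to a median of 0.0459, so that 20 of 31 members and 38.6% of all genes were then below 0. Relative to that median the count was again 29 of 31, and the core and cap medians lay at -0.098 and -0.059. In the 6 libraries without T3TG replicates 2 and 3, 27 of 31 members and 49.4% of all genes were below 0. Without WT replicate 3 it was 23 of 31 members and 50.4% of all genes. Changes of cell number and of RNA per cell cannot be told apart in RNA from whole tissue.

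**Figure D2:**
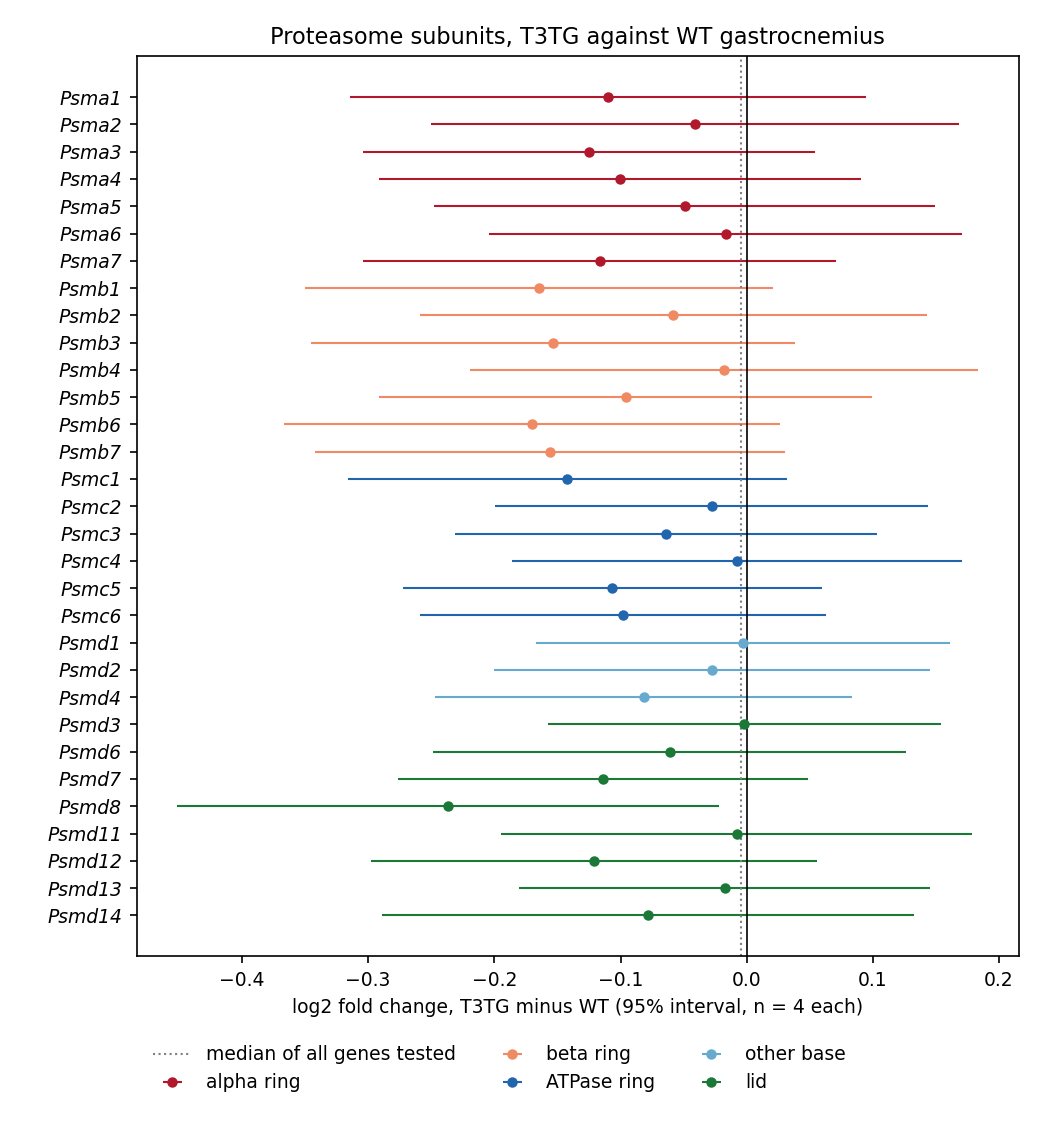
Log2 fold change, T3TG minus WT, of each proteasome subunit (points) with its 95% interval (lines, n = 4 libraries each), genes listed by ring or subcomplex and colored accordingly. The dotted line is the median of all genes tested. All points lie left of 0, between -0.24 and -0.00181, and all intervals but that of Psmd8 cross 0.

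In the core, all 14 members were below 0, with a median log2 fold change of -0.11 (-7.03%). The 7 alpha subunits form the outer rings and the gate of the barrel, and their log2 fold changes ran from -0.12 to -0.02 with a median of -0.10. Psma3 had the lowest p among them. It had 117, 121, 119 and 108 CPM in T3TG replicates 1 to 4, against 117, 125, 144 and 122 CPM in WT replicates 1 to 4. Its groups overlapped, with T3TG replicate 4 lowest and WT replicate 3 highest (log2 fold change -0.12, SE 0.08, edgeR adjusted p = 0.730).

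The beta ring had the lowest median of the 5 groups of subunits, -0.15, over 7 members from -0.17 to -0.02. Psmb6, the caspase-like subunit, had 122, 111, 134 and 116 CPM in T3TG, against 117, 137, 150 and 141 CPM in WT (log2 fold change -0.17, SE 0.09, adjusted p = 0.667). Only WT replicate 1 lay among the T3TG values. Psmb7, the trypsin-like subunit, had 190, 162, 194 and 192 CPM in T3TG, against 186, 218, 217 and 202 CPM in WT (-0.16, SE 0.09, adjusted p = 0.671). Here too WT replicate 1 lay within the range of T3TG, and T3TG replicate 2 was far below the rest. The catalytic subunits lie apart in the genome, Psmb5 at chr14:54614119-54618022, Psmb6 at chr11:70525367-70527858 and Psmb7 at chr2:38588036-38644087 (GENCODE M21, mm10). Psmb5, the chymotrypsin-like subunit and the target of proteasome inhibitor drugs, had 74.0, 63.6, 76.3 and 61.1 CPM in T3TG, against 65.9, 77.2, 76.8 and 74.3 CPM in WT (-0.10, SE 0.09, adjusted p = 0.824). Its T3TG libraries fell into a higher pair, replicates 1 and 3, and a lower pair, replicates 2 and 4. Psmb1, a beta subunit without catalytic activity, had the lowest p of the ring. It had 127, 119, 125 and 117 CPM in T3TG, against 125, 134, 159 and 130 CPM in WT (-0.16, SE 0.09, adjusted p = 0.654), with WT replicate 1 between the T3TG values.

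In the cap, all 17 members were below 0, with a median of -0.06 (-4.33%). The difference between the medians of core and cap was not tested. The 6 ATPases, which unfold the substrate, ran from -0.14 to -0.00771 (median -0.08). Psmc1 had the lowest p of the ring. It had 111, 108, 109 and 108 CPM in T3TG, against 108, 128, 131 and 114 CPM in WT, so that the T3TG libraries lay close together and WT replicate 1 stood with them (log2 fold change -0.14, SE 0.08, adjusted p = 0.682). Psmc3, the most abundant ATPase transcript, had 188, 182, 195 and 178 CPM in T3TG, against 179, 204, 203 and 191 CPM in WT (-0.06, SE 0.08, adjusted p = 0.866).

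The other base subunits were nearest to 0. Psmd1 and Psmd2, the large scaffold proteins of the base, had log2 fold changes of -0.00291 and -0.03 (SE 0.08 each). Psmd4, the ubiquitin receptor, had 139, 130, 138 and 135 CPM in T3TG, against 134, 154, 149 and 138 CPM in WT (-0.08, SE 0.08, adjusted p = 0.822), with overlapping groups.

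The lid held the widest range, from -0.24 to -0.00181 (median -0.07, 8 members). Psmd8 (chr7:29174188-29180701, minus strand, mm10) had 174, 207, 170 and 197 CPM in T3TG, against 195, 241, 248 and 198 CPM in WT, a mean of 187 ± 17.8 CPM in T3TG and 220.4 ± 28.01 CPM in WT (SD, n = 4 each). T3TG replicates 1 and 3 were the lowest of the 8 libraries and WT replicates 2 and 3 the highest, and T3TG replicate 2 exceeded WT replicates 1 and 4. Its log2 fold change came to -0.24 (SE 0.10, 95% interval -0.45 to -0.02), with an edgeR p of 0.0327 before and 0.554 after adjustment over all genes. Psmd14, the deubiquitinase that removes ubiquitin chains from the substrate, had 46.3, 48.2, 53.9 and 53.4 CPM in T3TG, against 45.8, 55.5, 61.9 and 49.9 CPM in WT (-0.08, SE 0.10, adjusted p = 0.872), with the values of the groups interleaved. Psmd3, Psmd11 and Psmd13 lay within 0.02 of 0 on the log2 scale, and Psmd6, Psmd7 and Psmd12 had -0.06, -0.11 and -0.12.

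**Figure D3:**
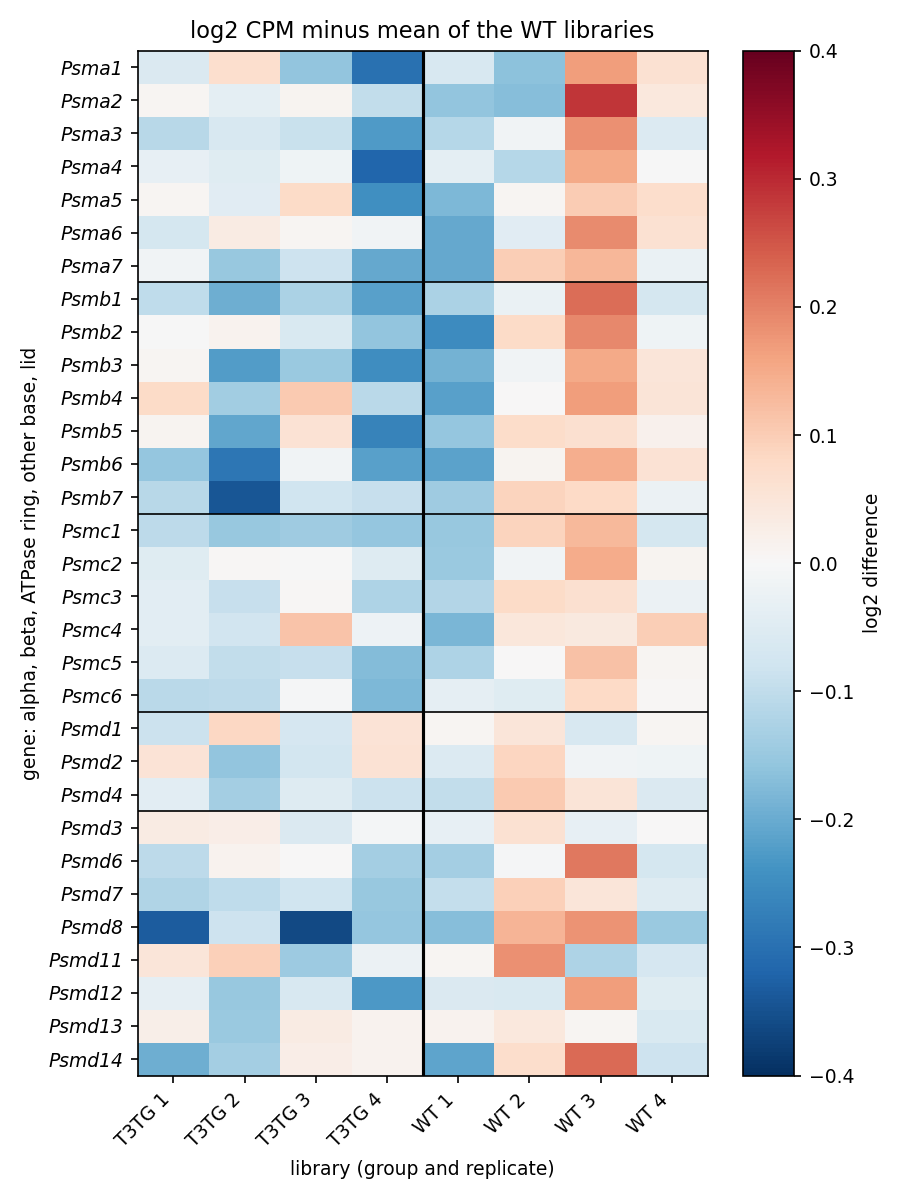
Log2 CPM of each subunit (rows, ordered by alpha ring, beta ring, ATPase ring, other base subunits and lid) in each library (columns, T3TG left, WT right), as the difference from the mean of the WT libraries. WT replicate 3 is the highest of the 8 libraries in 12 of the 14 core genes and T3TG replicate 4 the lowest in 7 of them.

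Summed over its genes, the core had 1453, 1366, 1461 and 1328 CPM in T3TG replicates 1 to 4, against 1343, 1499, 1677 and 1513 CPM in WT replicates 1 to 4. The means were 1402 ± 65.1 CPM in T3TG and 1508 ± 136 CPM in WT (SD, n = 4 each). The groups overlapped through WT replicate 1, the second lowest of the 8. The cap had 2199.6, 2203, 2196 and 2188 CPM in T3TG, against 2167, 2405, 2424 and 2251 CPM in WT. The mean was 2197 ± 6.24 CPM in T3TG and 2312 ± 124 CPM in WT (SD, n = 4 each). WT replicate 1 was below all T3TG libraries and the other 3 WT libraries above them. The ratio of core to cap was 0.660, 0.620, 0.665 and 0.607 in T3TG, against 0.620, 0.623, 0.692 and 0.672 in WT, so the groups overlapped in this ratio too.

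**Figure D4:**
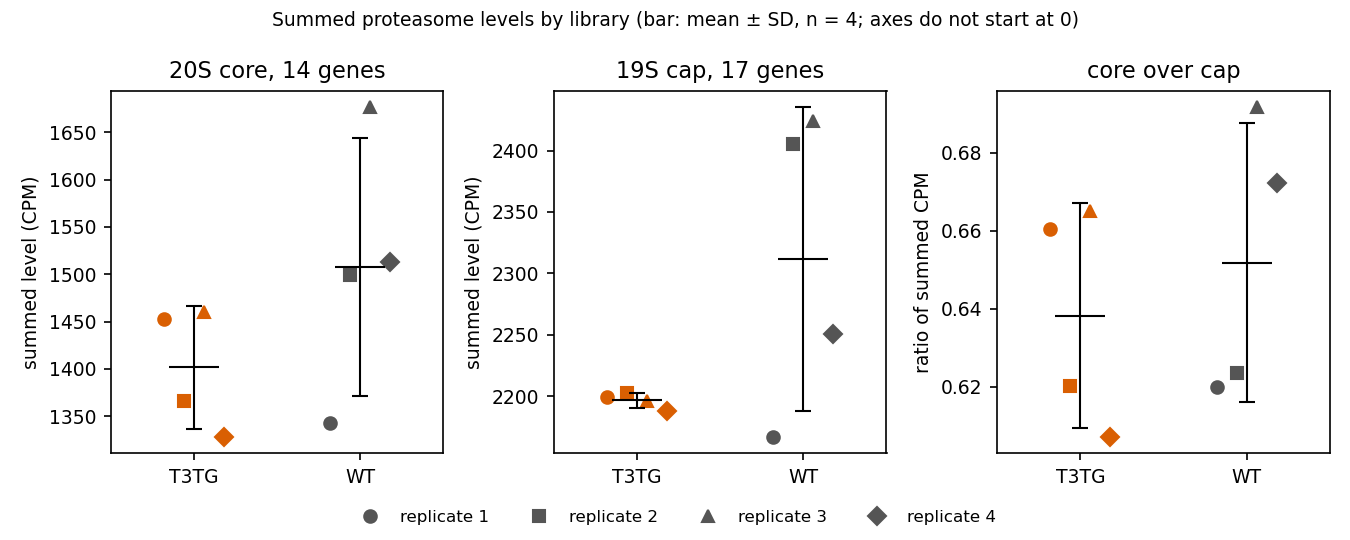
Summed level of the 14 core genes and of the 17 cap genes in CPM, and the ratio of the sums, for each T3TG (left) and WT (right) library, with the mean ± SD (n = 4). The cap sums of T3TG lie between 2188 and 2203 CPM and those of WT between 2167 and 2424 CPM; the axes do not start at 0.

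Single libraries moved many members together. WT replicate 3 was the highest of the 8 libraries for 12 of 14 core genes and 8 of 17 cap genes, against 15.7% of all genes. T3TG replicate 4 was the lowest for 7 core and 7 cap genes, against 11.3% of all genes. Without WT replicate 3 the core median was -0.056, and without T3TG replicate 4 it was -0.048, against -0.11 with all libraries. Without WT replicate 1 the cap median was -0.11. There 7 members had an unadjusted edgeR p under 0.05 (Psma7, Psmb1, Psmb3, Psmb6, Psmb7, Psmc1 and Psmd8), with an adjusted p no lower than 0.478. Over all genes 0 were called in that setting. The share of all genes under the unadjusted p there is not given, so the 7 cannot be set against it. In the 6 libraries the medians were -0.12 for the core and -0.08 for the cap.

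The excess in WT replicate 3 was not spread evenly over the subunits. It was above the mean of the other 3 WT libraries in all 14 core genes (median 0.21 on the log2 scale) and in all 6 ATPases (0.13), and below it in Psmd1 (-0.09), Psmd2 (-0.02), Psmd3 (-0.04) and Psmd11 (-0.16). Over all genes tested, WT replicate 3 was above that mean in 7317 of 14064, with a median of 0.0125. The subunit mRNAs are short: with the genes split into 3 classes of nearly equal size by transcript length, 26 of 31 members belonged to the shortest class, of 303 to 2314 bases. In that class the median gene stood 0.09 higher in WT replicate 3 than in the other WT libraries, and 58.0% of its 4144 genes had a log2 fold change below 0 between T3TG and WT. In the longest class these values were -0.06 and 42.9%. The median fold change in the shortest class was -0.03 over all genes and -0.10 over the 26 members. Across the 31 members, Pearson's r of the WT replicate 3 difference with the log2 transcript length was -0.35, and that of the fold change with length 0.36. Across the 12432 genes with a length the same values were weaker, -0.15 and 0.086. The members share libraries and are not independent, and the part of transcript length in the difference was not tested.

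**Figure D5:**
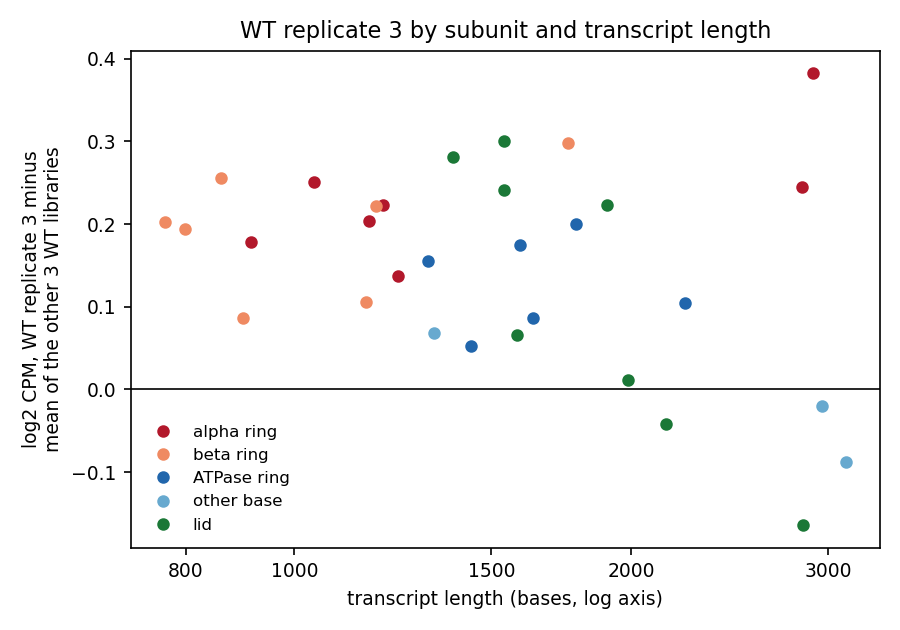
Log2 CPM of each subunit in WT replicate 3 minus the mean of the other 3 WT libraries (vertical axis) against the length of its annotated transcript in bases (log axis), colored by subcomplex. Psmd1, Psmd2, Psmd3 and Psmd11, between -0.16 and -0.02, have transcripts of 2148 to 3112 bases; Psma2 and Psma3, with 2911 and 2846 bases, lie above 0.

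Summed by list, markers of some other cell types were higher in every T3TG library than in every WT library, and other sums overlapped between the groups. A sum weighs its most abundant markers most. Taken gene by gene, every T3TG library was above every WT library in 439 of 14064 genes tested. Summed over 6 fibro-adipogenic progenitor markers (6 of 6 with a fold change above 0), the level was 1893 to 2326 CPM in T3TG and 1409 to 1753 CPM in WT, and over 5 endothelial markers (5 of 5) 340.1 to 402 CPM in T3TG and 246 to 321 CPM in WT. Macrophage markers (6 of 6) summed to 168.8 to 301 CPM in T3TG and 129 to 168.3 CPM in WT, a narrow separation. The sums of the other lists overlapped. Of the 6 muscle fiber markers, 1 had a fold change above 0. Their sums were 100305 and 105110 CPM in T3TG replicates 1 and 2, below all WT libraries. In T3TG replicates 3 and 4 they were 130937 and 130597 CPM, above all WT libraries. Adipocyte markers (3 of 3 tested) summed to 17.01 to 124 CPM in T3TG and 13.6 to 40.0 CPM in WT. Red cell markers (5 of 5) summed to 67.6, 79.3, 523 and 69.5 CPM in T3TG, against 70.6, 78.7, 81.7 and 133 CPM in WT, so that the higher level in T3TG rested on replicate 3 alone. Smooth muscle markers (3 of 3) summed to 116 to 182 CPM in T3TG and 86.4 to 136 CPM in WT, and Schwann cell markers (3 of 3) to 111 to 138 CPM in T3TG and 62.4 to 178 CPM in WT. Lymphocyte markers (1 of 1 tested) summed to 4.28 to 13.9 CPM in T3TG and 2.65 to 7.36 CPM in WT. No listed marker was at 0 in all libraries, and the part of these cells in the proteasome values was not tested.

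Other genes of the pathway were examined through a list of 41, of which 40 were tested. By edgeR 0 of 40 passed the test across all genes, against 0.0711% of all genes. Of the 40, 31 were below 0 and 9 above, with a median of -0.04, and 50.9% of all genes were below 0. The assembly chaperones, which guide subunits into the particle, were below 0 in 8 of 8 tested (median -0.11). Pomp, the chaperone that matures the core, had 68.9, 62.0, 69.4 and 60.5 CPM in T3TG, against 65.2, 78.7, 75.4 and 68.8 CPM in WT (log2 fold change -0.14, SE 0.09, adjusted p = 0.699). Nfe2l1 had 640, 529, 590 and 694 CPM in T3TG, against 718, 716, 618 and 646 CPM in WT (-0.14, SE 0.10, adjusted p = 0.743), with overlapping groups.

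The immunoproteasome replaces the catalytic beta subunits by inducible ones, Psmb8 for Psmb5, Psmb9 for Psmb6 and Psmb10 for Psmb7. Psmb8 had 8.67, 8.32, 11.0 and 8.09 CPM in T3TG, against 6.49, 10.9, 5.81 and 6.08 CPM in WT. Per coding length, its level was 11.2%, 12.5%, 13.7% and 12.7% of that of Psmb5 in T3TG, against 9.41%, 13.5%, 7.24% and 7.83% in WT. WT replicate 2 exceeded all but 1 of the T3TG values, and a two-sided exact permutation test of the log2 ratio gave p = 0.114 (adjusted over 3 pairs 0.171).
Psmb9 had 4.40, 4.68, 5.08 and 3.32 CPM in T3TG, against 3.498, 3.98, 2.72 and 3.18 CPM in WT. It stood at 3.93%, 4.58%, 4.11% and 3.10% of Psmb6 in T3TG, against 3.26%, 3.17%, 1.97% and 2.45% in WT (exact permutation p = 0.0857, adjusted 0.171). Psmb10 had 12.8, 9.69, 14.8 and 12.1 CPM in T3TG, against 11.5, 19.7, 15.8 and 14.7 CPM in WT. It stood at 6.86%, 6.07%, 7.75% and 6.40% of Psmb7 in T3TG, against 6.28%, 9.15%, 7.38% and 7.40% in WT (exact permutation p = 0.343, adjusted 0.343). The smallest p that 4 against 4 libraries allow is 0.0286.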

How the data were processed

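Per the labels, polyA RNA was sequenced. The values the authors deposited for the 8 libraries are whole-number counts, 1 row a gene symbol, not normalized. Per the submitters' processing notes, reads were handled on mm10. The notes list HISAT2 (2.2.1) and HTSeq (0.9.1), and also DESeq2 (1.34.0). Neither annotation nor strand setting is given there. Of 35976 rows, 27 named by a calendar date were left out (0.0885% to 0.0961% of a library's counts). After filterByExpr and TMM scaling, T3TG minus WT was fitted by quasi-likelihood in edgeR 4.0.16 (R 4.3.3), with Benjamini-Hochberg adjustment over 14064 genes and a threshold of 0.05. The SE is the absolute log2 fold change over the square root of F. DESeq2 1.42.0 was an alternative. The script was tested on simulated data. No label says that the libraries come from separate mice, so the p-values reflect only their spread, which may be technical; 12 pairs of replicates all differed beyond sampling noise.

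Coding and transcript lengths and exons come from GENCODE M21 (the principal transcript with the longest coding sequence), copies from blastn 2.17.0, and promoters from RefSeq on GRCm38.p6, the assembly behind mm10. Permutation tests used scipy 1.17.1. Named members were, per group of subunits, that with the lowest p and that with the highest level per coding length, plus Psmb5, Psmb6, Psmb7, Psmd4 and Psmd14. Named pathway genes were Nfe2l1, Pomp, Psmb8, Psmb9 and Psmb10; the rule for naming them also covered an item that is not reported here. Others are named where a count or a contrast turns on them, chosen after their values were seen. The members and lists were chosen with earlier results of these data known. Alternatives were other scalings and filters, DESeq2, a block on the first title number, leaving out libraries, and halved counts of T3TG replicates 2 and 3.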

Additional observations from a re-analysis of the deposited data

Results flagged for a closer look

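Among 80 groups of 4 libraries checked, 5 held a library whose gap to the nearest of the others passed the 95% critical value of Dixon's test, where chance gives about 1 group in 20. In T3TG, Psma4, an alpha subunit, had 62.4 CPM in replicate 4, against 75.2 to 76.9 CPM in the other 3. Psmb7 had 162 CPM in T3TG replicate 2, against 189.9 to 194 CPM in the other 3. Psmd13, the neighbor of Sirt3, had 62.9 CPM in T3TG replicate 2, against 70.5 to 71.4 CPM in the other 3. In WT, Psmd12, a lid subunit, had 121 CPM in replicate 3, against 103 to 104 CPM in the other 3. The inducible subunit Psmb8 had 10.9 CPM in WT replicate 2, against 5.81 to 6.49 CPM in the other 3.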

How the results depend on the processing

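No proteasome member was called under any of the 17 alternatives, and the medians of core and cap stayed below 0 in all of them. Without scaling factors the cap median was -0.013, against -0.064 as reported, but the median of all genes moved with it, and relative to that median the cap lay at -0.0592 without the factors and at -0.0596 as reported. Leaving out 1 library gave core medians from -0.15 to -0.048, cap medians from -0.11 to -0.043, 23 to 31 members below 0, 0 to 7 members at an unadjusted p under 0.05 (1 with all libraries), 0 to 37 genes called in all (10 with all libraries) and 0 to 1 called lower (0 with all libraries). The 7 came without WT replicate 1, where the share of all genes at that p is not given, and the 37 without T3TG replicate 1. Genes called in all were 52 without scaling factors, 107 without a filter on low counts (3 lower), 105 with DESeq2 (6 lower), 4 with the block (1 lower) and 0 in the 6 libraries without T3TG replicates 2 and 3. Members below 0 were 20 without scaling factors, and 29 of 31 were below the median of all genes there, as with the factors. Members at an unadjusted p under 0.05 were 0 without scaling factors, 0 with the block and 0 in the 6 libraries. The cause of the other shifts was not tested.

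Members near 0 changed sign. Leaving out the scaling factors put the median of all genes at 0.0459, against -0.0043 with them, a shift that by itself turns the sign of small values. Without the factors Psma2, Psma5, Psma6, Psmb4, Psmc2 and Psmc4 had log2 fold changes of 0.010, 0.0023, 0.033, 0.033, 0.023 and 0.041, and Psmd1, Psmd2, Psmd3, Psmd11 and Psmd13 had 0.047, 0.023, 0.050, 0.045 and 0.032. With upper-quartile scaling Psmc4, Psmd1, Psmd3 and Psmd11 had log2 fold changes of 0.0022, 0.0066, 0.0079 and 0.0016. In the 6 libraries Psmd2, Psmd3, Psmd11 and Psmd13 had log2 fold changes of 0.056, 0.012, 0.0089 and 0.019. Leaving out 1 library gave ranges of -0.10 to 0.062 for Psma2, -0.11 to 0.010 for Psma5, -0.088 to 0.048 for Psma6, -0.14 to 0.0078 for Psmb2, -0.092 to 0.039 for Psmb4, -0.082 to 0.024 for Psmc2, -0.072 to 0.022 for Psmc4, -0.037 to 0.023 for Psmd1, -0.057 to 0.0087 for Psmd2, -0.020 to 0.018 for Psmd3, -0.11 to 0.014 for Psmd6, -0.048 to 0.056 for Psmd11, -0.041 to 0.019 for Psmd13 and -0.15 to 0.00097 for Psmd14.

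Libraries of both groups share the first number of their titles, which no label explains. Deviations from the group means correlated at 0.12, -0.054, 0.15 and 0.073 in the 4 T3TG and WT pairs that share it. In the pairs that do not share it the correlations ran from -0.19 to 0.085. The values 0.12 and 0.15 lay above that range, and -0.054 and 0.073 within it. The labels do not settle whether the number pairs the samples, and the main fit did not use it. With that number as a replicate block Psma2 and Psmd13 had log2 fold changes of 0.020 and 0.012, and the core and cap medians were -0.080 and -0.074. No T3TG library shares the first number of WT replicate 1 or 3, so these libraries add nothing to the group difference with the block. It then rests on T3TG replicate 1 against WT replicate 2 and on T3TG replicates 2, 3 and 4 against WT replicate 4. Each member had at least 647 counts in each library, and the SEs of the members' log2 fold changes were 0.07 to 0.10.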
